A study of Mus musculus with 12 samples.

Results

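Horizontal cells were followed through 5 genes, Lhx1, Onecut1, Onecut2, Prox1 and Calb1, taken by name from the 24340 gene rows of the retinal RNA‐seq table. All 5 were above 0 in at least 1 library and were therefore among the 18509 rows tested. RNA came from both retinas of 6 p16‐3MR mice aged 12 to 16 weeks. All of the mice, controls included, carried the 3MR transgene, a luciferase, red fluorescent protein and viral thymidine kinase fusion driven by the regulatory region of p16, so that ganciclovir (GCV) is toxic in cells that express it. One eye of each mouse had been held at an intraocular pressure (IOP) of 85 to 90 mm Hg for 60 min, the other eye was its control, and both retinas were collected on day 3. Mice 3, 4 and 6 received no GCV (PBS sham) and gave the groups ctrl and IOP, while mice 1, 2 and 5 received GCV at 25 mg/kg and gave the groups ctrl-GCV and IOP-GCV (3 retinas per group). The eyes of 1 mouse are not independent animals, and the sex of each mouse is not given in the labels. Pressure in this range can block retinal blood flow, which limits the injury as a model of chronic glaucoma.

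Horizontal cells are the inhibitory interneurons of the outer retina. They receive glutamate from rods and cones, are coupled to each other through gap junctions, and feed back onto the photoreceptor terminals, which sets up the surround of bipolar and ganglion cell receptive fields. They are a small minority of retinal cells. Lhx1 is a LIM homeodomain factor that places horizontal cells in their layer and in the adult retina is largely restricted to them. Onecut1 and Onecut2 are cut homeodomain factors needed for horizontal cell genesis and maintenance, and are also made by retinal ganglion cells. Prox1 is a prospero homeodomain factor that promotes horizontal cell fate and persists in AII amacrine and some bipolar cells. Calb1 encodes the calcium buffer calbindin, the usual antibody marker of mouse horizontal cells, which is shared with some amacrine and ganglion cells. In bulk retina, fewer cells of a type and less RNA per cell cannot be told apart.

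The proximal promoters of 3 of the transcription factor genes are shown. Each of these genes was lower in the IOP eye of every mouse, and the transcript that starts opposite Lhx1 was measured as well. Onecut2 and Calb1 were lower in every mouse too, and their promoters are not shown. The sequences are the 250 bases before the annotated start, 5′ to 3′ on the strand of the gene, from RefSeq on GRCm38.p6. Capitals mark the motifs found by a search of both strands for the half-site TGACG of the cyclic AMP response element, the box CCAAT, the TATA box in its form TATAAA, the GC box in its form GGGCGG and the E-box in its form CANCTG.
Lhx1, minus strand, chr11:84525535-84525784: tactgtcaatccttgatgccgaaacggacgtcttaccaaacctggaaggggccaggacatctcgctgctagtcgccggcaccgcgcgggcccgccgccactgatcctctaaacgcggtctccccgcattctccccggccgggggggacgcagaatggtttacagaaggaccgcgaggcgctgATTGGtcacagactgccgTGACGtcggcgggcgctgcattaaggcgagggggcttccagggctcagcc
Onecut1, plus strand, chr9:74861671-74861920: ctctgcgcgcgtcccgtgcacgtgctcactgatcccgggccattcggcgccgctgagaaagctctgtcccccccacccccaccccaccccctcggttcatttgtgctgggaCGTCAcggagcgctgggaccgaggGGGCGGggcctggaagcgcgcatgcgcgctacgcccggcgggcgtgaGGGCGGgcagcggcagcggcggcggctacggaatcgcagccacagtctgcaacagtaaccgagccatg
Prox1, minus strand, chr1:190170828-190171077: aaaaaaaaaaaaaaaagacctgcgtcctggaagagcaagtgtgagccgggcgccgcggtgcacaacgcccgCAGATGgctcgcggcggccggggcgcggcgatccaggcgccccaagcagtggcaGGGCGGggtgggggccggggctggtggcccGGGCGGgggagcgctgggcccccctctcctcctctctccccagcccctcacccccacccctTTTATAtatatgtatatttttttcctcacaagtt

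All 3 windows were rich in GC, at 64.8% for Lhx1, 71.6% for Onecut1 and 64.8% for Prox1 against a median of 52.4% over 32536 such windows. They held 26, 31 and 20 CpG dinucleotides, where the median window held 6. The half-site TGACG lay 50 bases before the start of Lhx1 and, as its reverse CGTCA, 139 bases before that of Onecut1. This half-site occurs in 17.9% of all windows and was not found in the Prox1 window. Lhx1 also held a CCAAT box in reverse orientation (33.8% of windows), Onecut1 and Prox1 held 2 GC boxes GGGCGG each (33.0%), and Prox1 held an E-box CANCTG (44.8%) and a reversed TATAAA (12.3%). No window contained ATCGAT, a core bound by ONECUT factors (0.735% of windows), or TAATTA, a core bound by LIM homeodomain factors (4.84%). These matches describe the letters only.

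In the control eyes, the 5 genes spanned a wide range of levels in FPKM, fragments per kilobase of transcript relative to library size, which allows levels of different genes to be set side by side. Calb1 was highest, at 18.9 to 27.0 FPKM in the 6 control retinas (median 23.5). Prox1 followed at 10.9 to 15.6 FPKM (median 13.8), with no overlap with Calb1. Lhx1 lay at 0.896 to 1.66 FPKM (median 1.06) and Onecut1 at 0.879 to 1.17 FPKM (median 1.04), and these neighbours overlapped. Onecut2 was lowest, at 0.286 to 0.485 FPKM (median 0.376), below every control value of the other members.

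The counting error behind the low genes is large. At an estimated 3970000 to 9060000 fragments per library, the Lhx1 values rest on about 0 to 55 fragments and those of Onecut1 on about 0 to 39. Those of Onecut2 rest on about 5 to 68. Prox1 rests on about 101 to 1095 fragments and Calb1 on about 105 to 840. The shallowest library was the IOP retina of mouse 6, with 14844 genes above 0 against at least 16044 in each of the others. In that library Lhx1 and Onecut1 were listed at 0. It also listed at 0 the ribosomal protein gene Rpl26 and 15 more genes with a median over 5 FPKM in the other libraries, whereas each of the other libraries had 0 to 7 such genes, so a value of 0 there may not mean absence.

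**Figure D1:**
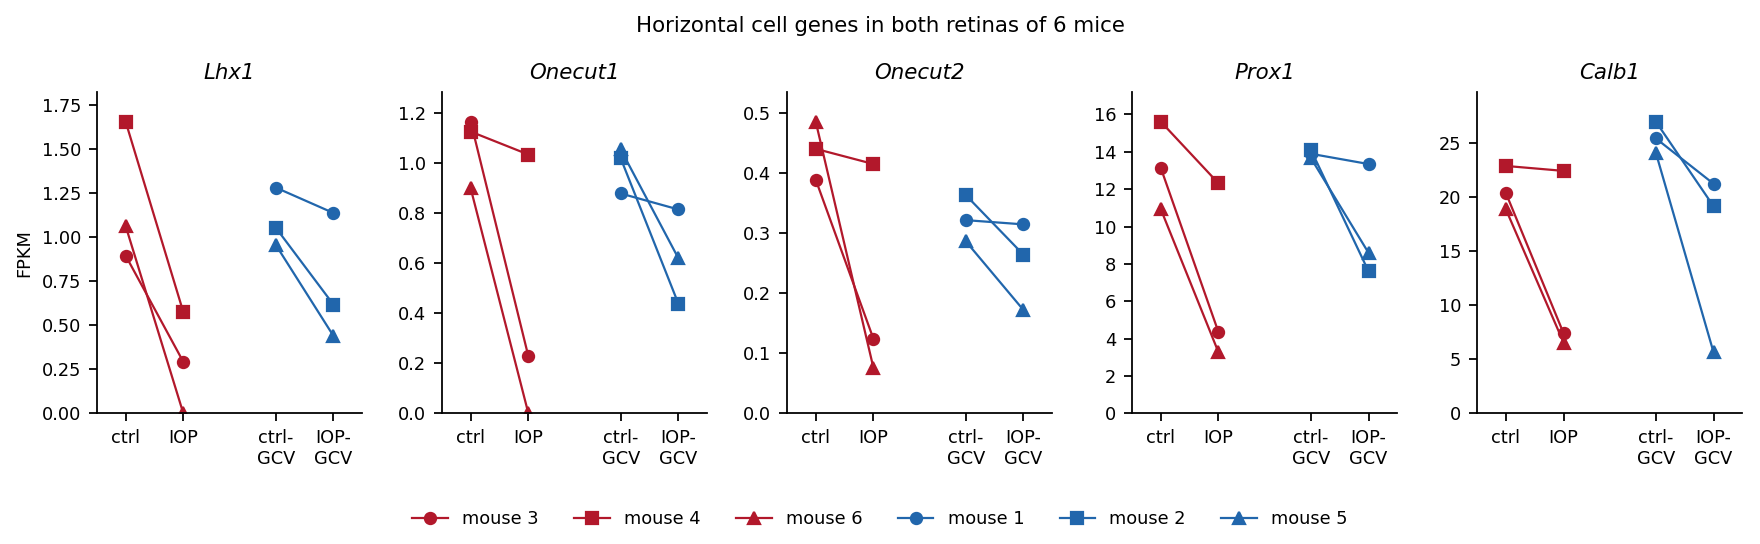
FPKM of the 5 members in each retina (y axis, 1 panel per gene, linear from 0), with a line joining the control and IOP eye of a mouse, red without and blue with GCV. All 30 lines slope down from the control to the IOP eye, with short slopes in mice 4 and 1 except for Lhx1 in mouse 4.

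Lhx1, the factor most restricted to horizontal cells, was measured at 0.896, 1.66 and 1.06 FPKM in the ctrl retinas of mice 3, 4 and 6. In their IOP retinas it was 0.293 and 0.575 FPKM in mice 3 and 4 and listed at 0 in mouse 6. The ctrl and IOP groups did not overlap, and the control eye of mouse 4 was the highest of the 12 retinas. In mice 1, 2 and 5, with GCV, Lhx1 was 1.28, 1.06 and 0.958 FPKM in the control eyes. The IOP-GCV retinas held 1.14, 0.618 and 0.441 FPKM, so that the 2 GCV groups overlapped through mouse 1. The IOP eye thus held 32.7% and 34.7% of the control eye's value in mice 3 and 4, and 88.8%, 58.6% and 46.0% in mice 1, 2 and 5.

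Onecut1 was 1.17, 1.13 and 0.899 FPKM in the ctrl retinas of mice 3, 4 and 6. Their IOP retinas held 0.228 and 1.03 FPKM in mice 3 and 4, and mouse 6 was listed at 0. Mouse 4 kept 91.9% of its control value and made the groups overlap. With GCV, the control eyes of mice 1, 2 and 5 held 0.879, 1.02 and 1.05 FPKM. All 3 IOP-GCV values, 0.815, 0.438 and 0.620 FPKM, lay below them.

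Onecut2, the paralogue of Onecut1, was 0.388, 0.440 and 0.485 FPKM in ctrl and 0.124, 0.415 and 0.0757 FPKM in IOP retinas (mice 3, 4 and 6). It was 0.321, 0.363 and 0.286 FPKM in ctrl-GCV and 0.314, 0.264 and 0.172 FPKM in IOP-GCV retinas (mice 1, 2 and 5). Mice 4 and 1 again stood out, with 94.3% and 97.8% of the control value, against 15.6% in mouse 6. The IOP value of mouse 6 rests on about 5 fragments. Both pairs of groups overlapped.

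Prox1 was 13.1, 15.6 and 10.9 FPKM in the ctrl retinas of mice 3, 4 and 6 and 4.35, 12.3 and 3.27 FPKM in their IOP retinas. The groups overlapped because mouse 4 kept 78.9% of its control value, whereas mouse 3 kept 33.1% and mouse 6 kept 29.9%. With GCV, the control eyes of mice 1, 2 and 5 were close together at 13.9, 14.1 and 13.7 FPKM. The IOP-GCV retinas were all lower, at 13.3, 7.61 and 8.60 FPKM, although mouse 1 kept 96.1%.

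Calb1, the calcium buffer, was 20.4, 22.9 and 18.9 FPKM in the ctrl retinas of mice 3, 4 and 6 and 7.42, 22.4 and 6.56 FPKM in their IOP retinas. With GCV it was 25.4, 27.0 and 24.1 FPKM in the control eyes of mice 1, 2 and 5 and 21.2, 19.1 and 5.65 FPKM in the IOP eyes. Without GCV the groups overlapped and with GCV they did not. Calb1 had its lowest percentage in mouse 5, at 23.5% of the control eye, where the other members kept 46.0% to 62.9%.

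The first question was whether elevated IOP changed these genes. The test was limma on log2(FPKM + 1) with Benjamini-Hochberg adjustment over the 18509 rows, and called means an adjusted p under 0.05. On this scale the change of a gene near or below 1 FPKM is understated. Without GCV, IOP against ctrl called none of the 5 members, against 1.65% of all rows called in either direction and 0.232% called lower. At an unadjusted p under 0.05, 4 of the 5 members were lower (9.42% of all rows). The log2 difference was -0.78 for Lhx1 (SE 0.20, adjusted p = 0.0932), -0.60 for Onecut1 (adjusted p = 0.203), -0.27 for Onecut2 (adjusted p = 0.21), -1.07 for Prox1 (SE 0.36, adjusted p = 0.189) and -0.92 for Calb1 (SE 0.48, adjusted p = 0.32). These counts rested on single libraries. Without the IOP retina of mouse 4, 4 members were called lower (adjusted p = 0.0118 to 0.0222, all but Calb1), and in that fit 13.1% of all rows were called and 8.07% were called lower. All 5 then had an unadjusted p under 0.05 (16.4% of all rows lower), and the Calb1 difference became -1.44. An unadjusted p under 0.05 was left for 1 member, Lhx1, without the IOP retina of mouse 3 (7.63% of all rows lower) or that of mouse 6 (5.24%), or in a fit to these 2 groups alone (5.11%), and without the IOP retina of mouse 6 the Onecut1 difference became -0.38. Quantile normalization called Lhx1 (adjusted p = 0.0437, with 0.384% of all rows called lower). At a pseudocount of 0.1 the differences of the low genes were larger, at -2.09 for Lhx1, -1.79 for Onecut1 and -0.98 for Onecut2, and none was called. Groups that did not overlap, with IOP lower, were found for 1 member, Lhx1, and for 8.81% of all rows.

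With GCV, IOP-GCV against ctrl-GCV also called none of the members (1.8% of all rows called, 0.157% called lower), and none had an unadjusted p under 0.05 (9.15% of rows lower). All 5 differences were again negative. They were -0.29 for Lhx1 (adjusted p = 0.477), -0.29 for Onecut1 (adjusted p = 0.514), -0.08 for Onecut2 (adjusted p = 0.714), -0.49 for Prox1 (adjusted p = 0.514) and -0.88 for Calb1 (adjusted p = 0.357). Without the IOP-GCV retina of mouse 5, Calb1 came to -0.32, Lhx1 to -0.17 and Onecut2 to -0.04, and without that of mouse 1, Lhx1 came to -0.46. In a fit to these 2 groups alone, 1 member, Onecut1, had an unadjusted p under 0.05 (11.7% of all rows lower). For Onecut1, Prox1 and Calb1 the groups did not overlap, with IOP-GCV lower, as for 15.3% of all rows.

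Averaged over mice without and with GCV, Lhx1 fell and was the 1 member called, where 12.2% of all rows were called and 5.44% were called lower. Its mean effect was -0.54 on the log2 scale (SE 0.14, 95% interval -0.85 to -0.22, adjusted p = 0.0382). The other 4 members did not pass, with -0.45 for Onecut1 (adjusted p = 0.0784), -0.17 for Onecut2 (adjusted p = 0.118), -0.78 for Prox1 (adjusted p = 0.0703) and -0.90 for Calb1 (adjusted p = 0.105). All 5 had an unadjusted p under 0.05 with lower values in IOP eyes, as had 16.1% of all rows, and this count fell to 3 members without the IOP retina of mouse 3 (14.5% of all rows) or that of mouse 6 (15.5%). The median over the members was -0.54, against 0.01 over all rows. The Lhx1 call was lost at a pseudocount of 0.1, where the difference was -1.35 (adjusted p = 0.0668). It was also lost when any of 10 single libraries was left out (adjusted p = 0.0595 to 0.0947), and was kept without the IOP retina of mouse 4 (adjusted p = 0.0122) or the IOP-GCV retina of mouse 1 (adjusted p = 0.028). Without the shallow IOP retina of mouse 6, where it was listed at 0, the difference was -0.45 (adjusted p = 0.0616).

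**Figure D2:**
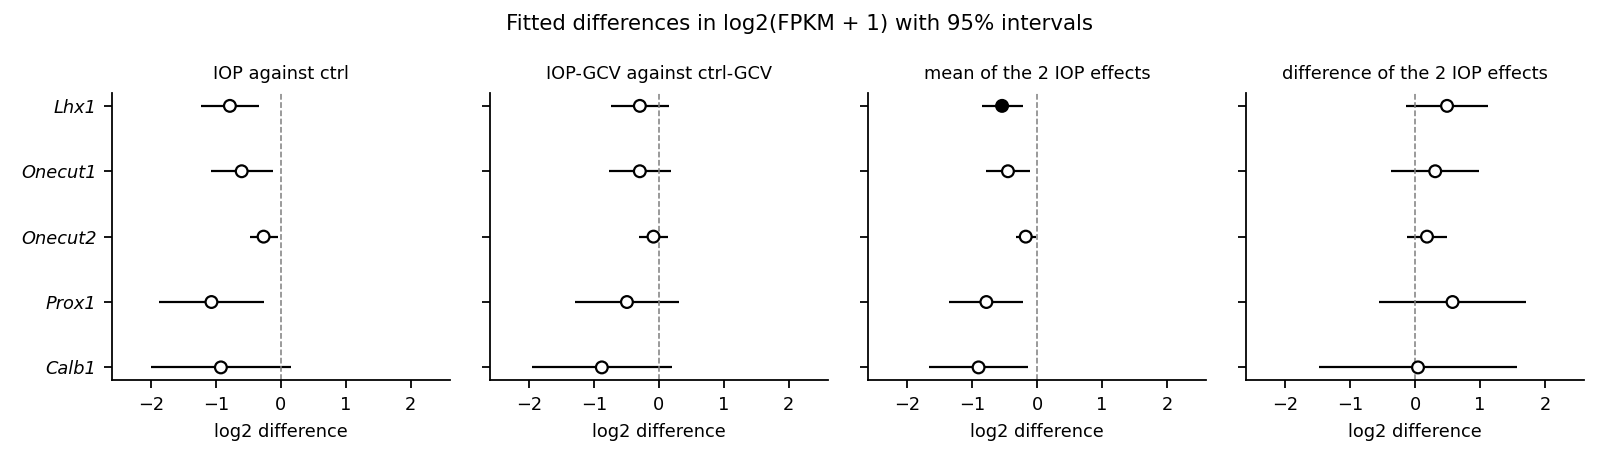
Fitted log2 differences of FPKM + 1 (x axis) for each member with 95% intervals (lines), for IOP without GCV, IOP with GCV, the mean of these effects and their difference. The filled point is the one called at an adjusted p under 0.05, Lhx1 in the mean of both effects at -0.54. The intervals of the difference all include 0.

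Within mice, each member was lower in the IOP eye than in the control eye in 6 of 6 animals. The exact two-sided sign-flip test over the 6 eye pairs gave p = 0.0312 for each of the 5 genes, the smallest p it can give with 6 mice, and these p-values are not adjusted. Of all rows tested, 10.1% were lower in the IOP eye of all 6 mice, and of the 12910 rows with a mean of at least 1 FPKM, 12.8% were. The mean difference was -0.54 ± 0.33 for Lhx1, -0.45 ± 0.37 for Onecut1, -0.17 ± 0.18 for Onecut2, -0.78 ± 0.57 for Prox1 and -0.90 ± 0.75 for Calb1 (log2 of FPKM + 1, SD, n = 6 mice, same exact test).

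The size of the reduction varied from mouse to mouse. In mouse 3 all 5 members kept between 19.6% and 36.4% of the control eye's value, and in mouse 1 between 83.5% and 97.8%. Mouse 2 ranged from 43.0% to 72.7% and mouse 5 from 23.5% to 62.9%. In mouse 6 the 3 members above 0 kept 15.6% to 34.7%, the lowest being Onecut2 with about 5 fragments in the IOP eye. Mouse 4 was divided, with Lhx1 at 34.7% and the other 4 members at 78.9% to 98.0%. The Lhx1 value of its IOP eye, 0.575 FPKM or about 18 fragments, was below all 6 control retinas.

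Across the 6 eye pairs the log2 differences of Onecut1 and Prox1 ran nearly in parallel (Pearson's r = 0.99), as did those of Onecut1 and Onecut2 (r = 0.95). Lhx1 followed Calb1 least (r = 0.28) and Onecut2 most (r = 0.71). These correlations are descriptions over 6 mice that share the same treatments, and mouse 6 was also the mouse with the shallow library.

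**Figure D3:**
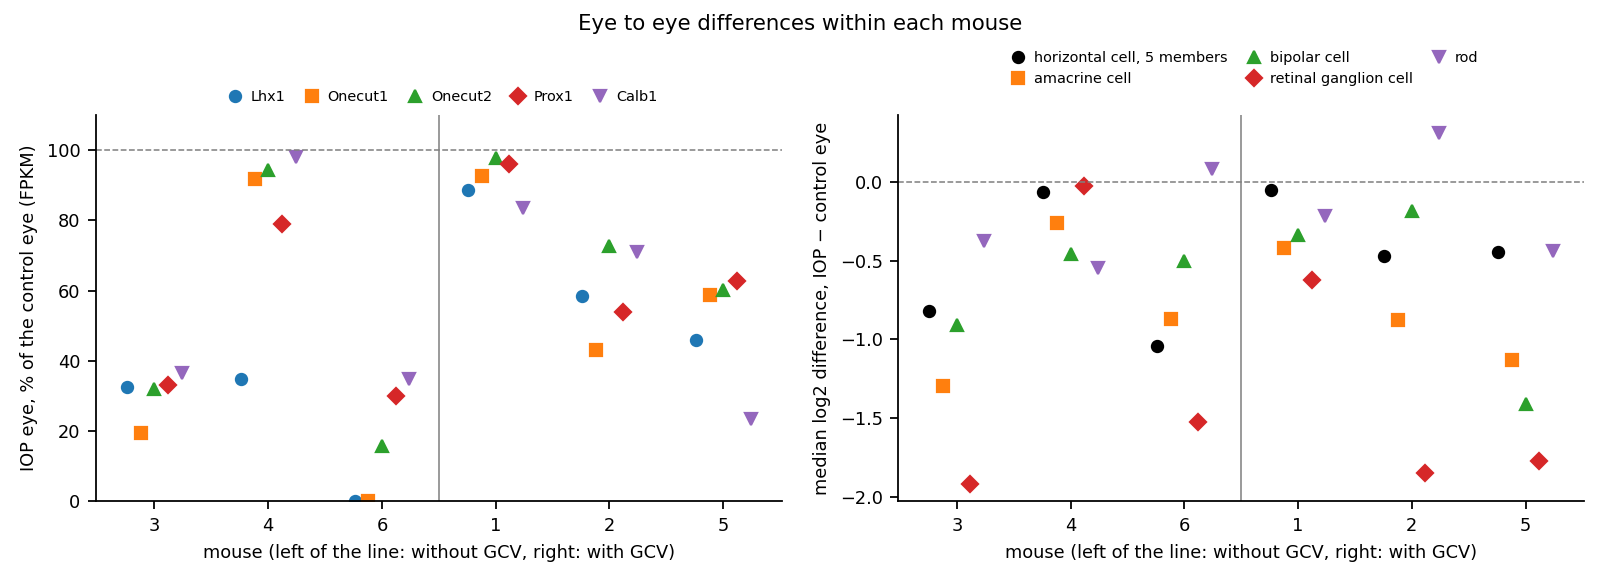
Left, the IOP eye as a percentage of the control eye in FPKM for each member and mouse. Right, the median log2 difference between the eyes over the 5 members and over marker lists of other retinal neurons. In mice 4 and 1 the median of the members was -0.06 and -0.05, and in the other mice -0.44 to -1.05.

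The next question was whether GCV changed the response. The difference between the IOP effects (with minus without GCV) was positive for all 5 members, turned negative for Calb1 with quantile normalization or without any of 5 single libraries, and was called for none, as it was for 0.0% of all rows. No member had an unadjusted p under 0.05 (1.93% of all rows), whereas with the mouse as a block 1 member had, Lhx1 (limma, unadjusted p = 0.0431, adjusted p = 0.992, 2.04% of all rows). Without the IOP retina of mouse 4 this held for 4 members, all but Calb1 (adjusted p = 0.788 for each, 4.43% of all rows). The difference was 0.49 for Lhx1 (95% interval -0.14 to 1.12), 0.31 for Onecut1 (-0.37 to 0.99), 0.18 for Onecut2 (-0.12 to 0.49), 0.58 for Prox1 (-0.56 to 1.71) and 0.04 for Calb1 (-1.48 to 1.56), with limma's adjusted p at 0.997 or 1 for each. Without the IOP retina of mouse 6 the difference was 0.32 for Lhx1, 0.09 for Onecut1, 0.11 for Onecut2 and 0.25 for Prox1, and leaving out the IOP retina of mouse 4 gave 0.60 for Onecut1, 0.30 for Onecut2 and 1.07 for Prox1. Intervals this wide hold both no difference and differences as large as the effect itself. An exact permutation of the eye differences between 3 and 3 mice gave p = 0.1 for Lhx1, the smallest p this design allows, p = 0.3 for Onecut1, Onecut2 and Prox1, and p = 1 for Calb1. For Lhx1 the mean eye difference was -0.78 ± 0.25 without and -0.29 ± 0.18 with GCV (log2 of FPKM + 1, SD, n = 3, exact test as above). The mean without GCV includes mouse 6, whose IOP eye was listed at 0 in the shallow library.

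Between mice, IOP-GCV against IOP called no member (0.0% of all rows called), and none had an unadjusted p under 0.05 (4.18% of rows). The values were higher with GCV for all 5, by 0.43 for Lhx1 (95% interval -0.02 to 0.88) and 0.65 for Prox1 (95% interval -0.15 to 1.46) at the top, with limma's adjusted p = 0.819 for each. Without the IOP retina of mouse 4, 4 members had an unadjusted p under 0.05, all but Calb1 (14.2% of all rows), and the Prox1 difference became 1.15 (adjusted p = 0.238). Without that of mouse 6 it became 0.33, and the Lhx1 difference 0.26. Without the IOP-GCV retina of mouse 1 they became 0.43 and 0.27. Without the IOP-GCV retina of mouse 5, 1 member had an unadjusted p under 0.05 (5.88% of all rows). In the control eyes, ctrl-GCV against ctrl called no member either (0.0% of all rows called, and 1.59% had an unadjusted p under 0.05, with no member among them, although Onecut2 and Calb1 had, with 6.83% of all rows, in a fit to these 2 groups alone). Here the differences ran from -0.12 for Onecut2 to 0.29 for Calb1, and 3 members were lower and 2 higher with GCV. The mean of Lhx1 was 1.21 ± 0.40 FPKM in ctrl and 1.10 ± 0.17 FPKM in ctrl-GCV retinas (SD, n = 3), which is within the spread. Each of these comparisons shares its libraries with the comparisons of IOP and control eyes.

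Beyond the members, 19 further genes of horizontal cell biology were examined. In the mean of both IOP effects 17 of the 19 were lower in the IOP eye, 4 of them called lower and none higher, with a median of -0.68. Among the 19, 1 lower and 1 higher gene were at 0 in most retinas and never above 0.123 FPKM, so their direction is not informative. Over all rows, 48.1% were lower, 5.44% were called lower and the median was 0.01. In IOP against ctrl and in IOP-GCV against ctrl-GCV, 17 of 19 were again lower with medians of -0.57 and -0.48, but none was called (0.232% and 0.157% of all rows called lower), and 5 and 7 had an unadjusted p under 0.05 (9.42% and 9.15% of all rows lower). Many of these genes are shared with amacrine cells. The 4 calls depended on the libraries as well, and ranged from 0 to 15 genes when 1 library was left out, while the share of all rows called ranged from 4.26% without the ctrl retina of mouse 4 to 24.3% without its IOP retina, where the upper end of 15 was reached.

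Of the 7 fate factors, Pax6 and Tfap2a were called. Pax6, the eye field factor kept by horizontal, amacrine and ganglion cells, was 87.6, 102 and 99.4 FPKM in ctrl and 43.4, 96.2 and 75.5 FPKM in IOP retinas (mice 3, 4 and 6). In mice 1, 2 and 5 it was 108, 119 and 113 FPKM in ctrl-GCV and 76.0, 62.3 and 49.4 FPKM in IOP-GCV retinas. Its mean effect was -0.68 (SE 0.18, adjusted p = 0.0361). Tfap2a, an AP-2 factor of horizontal and amacrine precursors, had a mean effect of -0.76 (SE 0.22, adjusted p = 0.0477). Its group means were 10.1 ± 2.3 FPKM in ctrl, 6.93 ± 3.55 in IOP, 13.1 ± 0.8 in ctrl-GCV and 6.44 ± 1.26 in IOP-GCV retinas (SD, n = 3).

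None of the 4 genes for spacing and arbors was called. All 4 were lower, with a median of -0.55, and 3 had an unadjusted p under 0.05 in the mean of both IOP effects, as had 16.1% of all rows with lower values.

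Of the 8 genes for coupling, transmitter and other functions, Gad1 and Gad2 were called. They encode the enzymes that make GABA, in mouse retina chiefly in amacrine cells. Gad1 was 48.5, 63.6 and 53.7 FPKM in ctrl and 13.9, 52.5 and 13.4 FPKM in IOP retinas (mice 3, 4 and 6), and 65.8, 80.9 and 73.6 FPKM in ctrl-GCV and 39.5, 34.3 and 12.3 FPKM in IOP-GCV retinas (mice 1, 2 and 5). Its mean effect, -1.39 (SE 0.36, adjusted p = 0.0365), was the lowest of the 24 horizontal cell genes in log2(FPKM + 1). That scale understates the change of genes near or below 1 FPKM, so the rank depends on the pseudocount. Gad2 had a mean effect of -1.01 (SE 0.26, adjusted p = 0.0366). Ndrg1, a stress response gene found in many cell types and the most abundant of the list with 119 ± 7 FPKM in ctrl retinas, was one of the 2 higher genes, at 0.28 (adjusted p = 0.266).

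**Figure D4:**
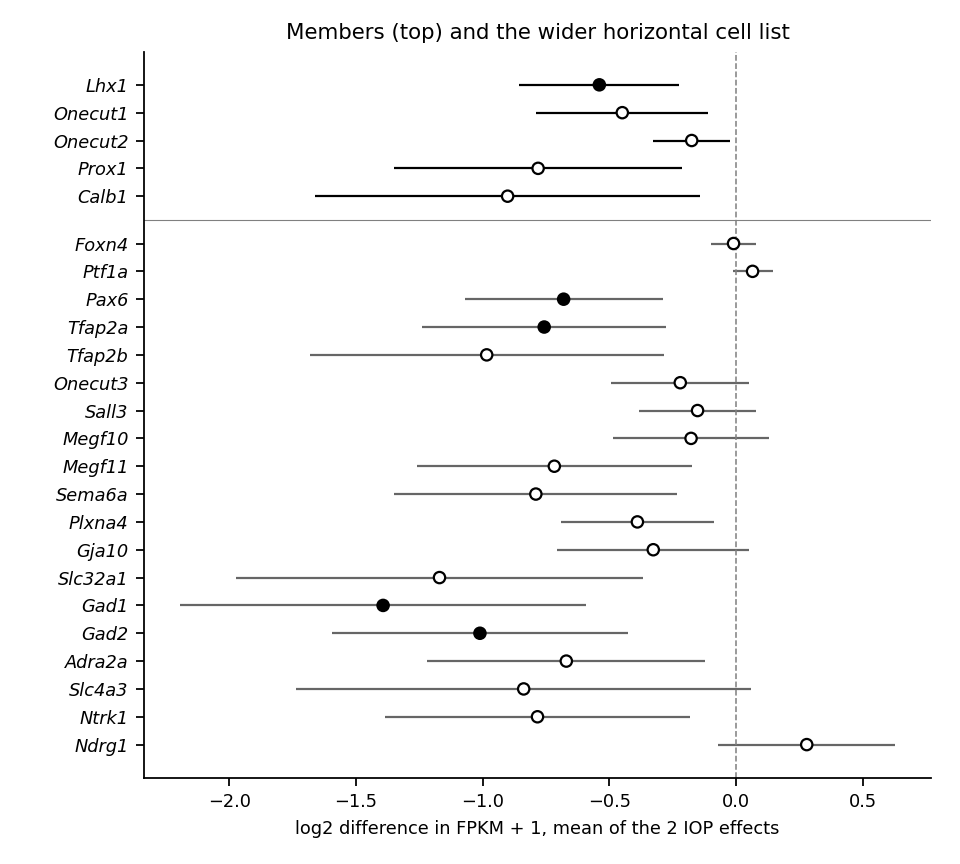
Mean of both IOP effects in log2(FPKM + 1) with 95% intervals (x axis) for the 5 members above the line and the 19 further genes below it. Filled points are called at an adjusted p under 0.05 (Lhx1, Pax6, Tfap2a, Gad1 and Gad2). Of the 24 points, 22 lie below 0, 1 of them for a gene at 0 in most retinas.

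The divergent long noncoding transcript Lhx1os starts inside the promoter window printed for Lhx1, on the opposite strand (chr11:84525660-84535831). It was singled out after its values had been seen. It was 0.850, 1.20 and 0.251 FPKM in ctrl retinas of mice 3, 4 and 6, and 0.273, 0 and 1.06 FPKM in their IOP retinas. With GCV it was 3.43, 1.14 and 1.27 FPKM in the control and 1.09, 1.26 and 1.01 FPKM in the IOP eyes of mice 1, 2 and 5. Unlike Lhx1 it was not lower in every mouse, and its mean effect of -0.36 was not called (SE 0.24, adjusted p = 0.348). Prox1os, which overlaps the first part of Prox1 on the other strand, was not analysed here. The kit marks strand, and whether the counting used it is not given in the sources used here.

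Marker lists of other retinal neurons were also lower in the IOP eyes. In the mean of both IOP effects, where 48.1% of all rows were lower, 5.44% called lower and 16.1% lower at an unadjusted p under 0.05, 11 of 11 retinal ganglion cell markers, led by Sncg, were lower with 10 called (median -1.27), 9 of 9 amacrine markers were lower with 3 called (median -0.81) and 9 of 9 bipolar markers, led by Gng13, were lower with none called and 6 at an unadjusted p under 0.05 (median -0.63). Of the rod markers, 7 of 9 were lower with a median of -0.22. These medians are not ranked against that of the members, since 3 of the 5 members lie near or below 1 FPKM and their differences depend on the pseudocount. The amacrine sum, led by Calb2, was 560 to 638 FPKM in ctrl, 135 to 467 in IOP, 622 to 1007 in ctrl-GCV and 135 to 369 in IOP-GCV retinas. Since Prox1, Calb1, Pax6 and the Gad genes are also made by amacrine cells, and Onecut1 and Onecut2 by ganglion cells, the part of those cells in the values above was not tested.

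Over the ganglion cell and the amacrine markers, mice 4 and 1 also differed least between the eyes. For ganglion cells, mouse 4 had a median eye difference of -0.03 and mouse 1 of -0.63, whereas the other mice had -1.52 to -1.92. For amacrine cells the median was -0.26 in mouse 4 and -0.42 in mouse 1, against -0.87 to -1.29 in the other mice. The rod list did not follow this order, with -0.55 in mouse 4 and 0.31 in mouse 2, nor did the bipolar list, with -0.46 in mouse 4 and -0.19 in mouse 2. The eye difference of the reactive glia list, led by Lcn2, was by contrast 3.37 in mouse 4 and 3.39 in mouse 1, within the 1.50 to 4.19 of all 6 mice. The 1.50 belonged to mouse 6, whose control eye had the highest reactive glia sum of the control eyes, at 147 FPKM. Most of the members' RNA was kept in the IOP retinas of mice 4 and 1, other than Lhx1 in mouse 4. What set these mice apart was not tested.

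Tissue other than neural retina also varied with the groups. In the mean of both IOP effects, 9603 of all 18509 rows were higher and 1252 were called higher. Of 16 lens markers, led by Cryaa, 16 were higher and 8 were called. Their summed level was 6.84 to 39.8 FPKM in ctrl, 101 to 4937 in IOP, 75.9 to 6482 in ctrl-GCV and 3101 to 6224 in IOP-GCV retinas. The highest control value belonged to mouse 1. Lens markers made up at most 1.42% of the FPKM sum of a library, and 0.0222% to 1.25% in the IOP retinas without GCV. Reactive glia markers were higher in 6 of 6 cases with 6 called (median 3.30), microglial markers, led by C1qb, in 7 of 7 with 5 called (median 1.49), and leukocyte markers, led by Lyz2, in 8 of 8 with 5 called (median 2.56). Leukocyte sums were 8.39 to 45.1 FPKM in ctrl and 314 to 729 in IOP retinas. Müller glia (led by Apoe), cones (Pde6h), pigment epithelium (Ttr), endothelium (Flt1) and red blood cells (Hba-a1) had medians of -0.31, -0.30, -0.09, 0.04 and -0.28. Of 8 Müller glia markers, 1 was called higher and 2 lower, and of 8 cone markers 1 was called lower (5.44% of all rows called lower). Lymphatic endothelium, which shares Prox1, had Ccl21a at 0 in all libraries and summed to 2.22 to 7.31 FPKM, mostly Lyve1. Both of its 2 tested markers were lower, with a median of -0.37 and none called. The part of these tissues in the members' values was not tested.

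The genes whose level followed each member most closely over the 12 libraries were searched among the 12910 genes that averaged 1 FPKM or more. For Lhx1 they were Chn2 (Pearson's r = 0.95), Fam69c (0.94) and Rnf182 (0.94). Onecut1 was followed by Whsc1 (0.96), Sfxn1 (0.96) and Shc2 (0.96), and Onecut2 by Gpc6 (0.96), Eny2 (0.95) and Fam135b (0.95). Sfxn1 (0.97) and Whsc1 (0.97) returned for Prox1, with P4ha2 (0.97). Calb1 was followed by Kcnj9 (0.99), Fibcd1 (0.99) and Adgrb1 (0.99). No gene was shared between the Lhx1 trio and those of the other members. These values are descriptions, since the libraries share mice, treatment and depth.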

How the data were processed

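RNA from 12 retinas was sequenced from stranded mRNA libraries. The authors deposited 1 table of FPKM values, with 24340 rows and 1 column per retina. Per the labels, their processing notes name TopHat2, Bowtie2, Cufflinks and Cuffdiff with the build mm10, and the study's methods name HOMER counts on exons of RefSeq genes. How the deposited FPKM values follow from these is not given in the sources used here, and the unit was inferred from the values. Depth was estimated from low values of genes with a single transcript, of which 81.0% to 87.4% lay within 0.15 of a whole fragment. Fragment numbers are therefore estimates.

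The fit used R 4.3.3 and limma 3.58.1 on log2(FPKM + 1), a mean for each of 4 groups, a variance trend and Benjamini-Hochberg adjustment over 18509 rows above 0 in at least 1 library (5831 rows were 0 in all). Exact sign-flip and permutation tests were run on the members, 10 in all, and likewise on the 19 wider-list genes, with Python 3.11.15 and scipy 1.17.1. The calling was tested on simulated data. For the mean of both IOP effects, 173 of 200 changed genes among 18509 were called, with 5 false calls. For IOP against ctrl it was 144 of 200, with 12 false calls. The changed genes had a mean above 1 in log2(FPKM + 1) and shifts of at least 1 on that scale. Lhx1, Onecut1 and Onecut2 lie below that mean, and the mean effects of all members are smaller than those shifts. The recovery of such changes was not tested.

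The members and all lists were chosen with earlier results of these data known. Named are the 5 members, the 3 most abundant genes of the wider list, those called and the 3 of smallest p in the mean effect, the most abundant gene of each other list and the 3 genes most like each member. One name under this rule is withheld and not reported here. Motifs were chosen for general promoter elements and the families of the members. Promoters came from RefSeq, and those of Lhx1, Onecut1 and Prox1 were used.

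The eyes of a mouse are paired by origin. Their deviations from the group means correlated at -0.117 to 0.388 over 12910 genes. The alternatives comprised the mouse as a replicate block, a fit to the compared groups alone, a pseudocount of 0.1, a filter of 1 FPKM in 3 libraries, median-ratio scaling, quantile normalization, no variance trend, other thresholds and each library left out. Leaving out both eyes of each mouse was added after seeing the data.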

Additional observations from a re-analysis of the deposited data

Results flagged for a closer look

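Gja10, the gap junction protein connexin 57 that couples horizontal cells, stood out in 1 mouse. Its eye difference in mouse 3 was -1.03 (log2 of FPKM + 1), with 1.62 FPKM in the control and 0.279 FPKM in the IOP eye. In the other 5 mice it lay between -0.08 and -0.31. The gap between mouse 3 and the nearest other mouse was 0.757 of the whole range of the 6 eye pairs, more than Dixon's 95% limit for 6 values. Such a flag arises by chance in about 1 in 20 groups of values, and the eye pairs of 24 genes were examined, with and without GCV together. Gja10 was lower in the IOP eye of all 6 mice (exact sign-flip p = 0.0312, unadjusted), and its mean effect of -0.33 was not called (limma, adjusted p = 0.231).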

How the results depend on the processing

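All 5 members kept their direction in the IOP comparisons under every alternative run. Of 524 values of single genes under the alternatives, 473 kept their direction and their side of the threshold, 26 passed it, 16 lost it and 9 uncalled values changed sign. Only Lhx1 in the mean effect was called in the main fit, so the 473 are mostly values that stayed uncalled. The other thresholds reuse the main fit, where no direction could change. The tally is therefore no measure of robustness. The Calb1 difference of the IOP effects became -0.027 with quantile normalization and ranged from -0.27 to 0.60 when single libraries or mice were left out. The same omissions gave -0.16 to 0.082 for Lhx1 and -0.041 to 0.20 for Prox1 in ctrl-GCV against ctrl, and -0.014 to 0.18 for Onecut2 in IOP-GCV against IOP. The call counts were less stable. For the mean of both IOP effects, where 1 member and 4 wider-list genes were called, a pseudocount of 0.1 left 0 members (12.2% of all rows called before and 12.6% after). A filter of 1 FPKM in 3 libraries, which removes Onecut2, gave 2 members (Prox1 added) and 7 wider-list genes with 19.7% of its 13411 rows, and quantile normalization gave 3 members in the mean (16.0% of all rows) and 1 in IOP against ctrl (1.77%). An adjusted p under 0.1 gave 3 members and 11 wider-list genes in the mean (22.3% of all rows) and 1 member in IOP against ctrl (3.28%). An unadjusted p under 0.05 gave 5 members and 11 wider-list genes in the mean (30.3% of all rows), 4 and 5 in IOP against ctrl (18.9%), and 7 wider-list genes in IOP-GCV against ctrl-GCV (19.2%).

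Leaving out 1 library or both eyes of 1 mouse moved the count in the mean between 0 and 5 members and between 0 and 15 wider-list genes, and in IOP against ctrl between 0 and 4 members and 0 and 9 wider-list genes. The share of rows called over the whole table also moved, between 2.32% and 24.3% in the mean and between 0.108% and 13.1% in IOP against ctrl. The upper ends were reached without the IOP retina of mouse 4, in which 4 of the 5 members kept 78.9% to 98.0% of the control value, so these counts are not independent of the outcome. Without both eyes of mouse 4, 4 members and 9 wider-list genes were called in the mean, with 17.2% of all rows. Leaving out 1 mouse from the eye pairs, the mean difference ranged from -0.63 to -0.44 for Lhx1, -0.53 to -0.35 for Onecut1, -0.21 to -0.12 for Onecut2, -0.93 to -0.64 for Prox1 and -1.08 to -0.70 for Calb1. The sign-flip p is then 0.0625, the smallest that 5 mice allow.

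With the mouse as a replicate block, which pairs the eyes, the counts were 1 member and 4 wider-list genes in the mean (Lhx1 adjusted p = 0.0331, with 7.3% of all rows called) and 0 in the other comparisons, so the block changed no call count at an adjusted p under 0.05. Lhx1, Onecut1 and Onecut2, at under 2 FPKM, are limited by depth.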
